A study of Mus musculus with 6 samples.

Results

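Eph receptor genes were followed in sorted Sst-lineage cells of the embryonic mouse cortex, with and without deletion of Dnmt1. The 10 genes described here (Epha3, Epha4, Epha5, Epha6, Epha7, Ephb1, Ephb2, Ephb3, Ephb4 and Ephb6) were taken by symbol from a table of 57132 genes, and each was found once. Controls were C57BL/6J embryos with Sst-Cre and a Cre-dependent tdTomato reporter, and Dnmt1 KO embryos carried floxed Dnmt1 alleles in addition, so that Cre and reporter were shared by both groups. Sst-Cre acts in postmitotic cells that express somatostatin, a neuropeptide of a class of inhibitory interneurons. Cortices were taken at E14.5, tdTomato-positive cells were isolated by FACS, and total RNA was sequenced from 3 control and 3 Dnmt1 KO libraries. Cells of several embryos per genotype were pooled and the sexes were not separated. The samples of a genotype were handled separately, but whether some of them shared embryos is not stated in the labels or methods. The p-values therefore rest on a spread between libraries that can be technical. The comparison addressed which transcripts depend on DNMT1, the enzyme that copies DNA methylation, in migrating interneurons.

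Eph receptors are membrane tyrosine kinases that are activated by ephrins on neighbouring cells. Ephrins of the A class are held in the membrane by a lipid anchor and those of the B class span it, and each class is bound mainly by receptors of the same letter, whereas EphA4 binds both. Contact often makes the receptor-bearing cell or growth cone withdraw, and ephrins can also signal back into the cell that carries them. In the developing forebrain, Eph and ephrin pairs line the routes of migrating interneurons: EphA4 with ephrin-A5 and EphB1 with ephrin-B3 are known from mouse studies of cells born in the ganglionic eminence and the preoptic area.

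The regions just before the transcription start are shown for 4 receptor genes, because DNMT1 acts on CG pairs and because these genes form 2 pairs within a class, each with 1 gene that was lower in Dnmt1 KO cells and 1 that was not called. Each line holds the 200 bases 5′ to 3′ before the RefSeq start on the strand of the gene (sequences of the RefSeq promoter table of build GRCm38.p6, each matched exactly and once to GRCm39, whose coordinates are given). All 4 genes lie on the minus strand, and capitals mark CG pairs. Ephb1 (chr9:102231893-102232092) and Ephb2 (chr4:136563324-136563523) are B class genes. Epha4 (chr1:77491726-77491925) and Epha3 (chr16:63684539-63684738) are A class genes. The Epha4 stretch lies inside the annotated gene, because its RefSeq start is 1091 bases downstream of the outermost GENCODE start.
Ephb1: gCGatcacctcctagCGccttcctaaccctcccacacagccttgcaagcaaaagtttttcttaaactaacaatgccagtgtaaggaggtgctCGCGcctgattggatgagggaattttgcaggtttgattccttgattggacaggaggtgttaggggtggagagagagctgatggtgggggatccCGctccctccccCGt
Ephb2: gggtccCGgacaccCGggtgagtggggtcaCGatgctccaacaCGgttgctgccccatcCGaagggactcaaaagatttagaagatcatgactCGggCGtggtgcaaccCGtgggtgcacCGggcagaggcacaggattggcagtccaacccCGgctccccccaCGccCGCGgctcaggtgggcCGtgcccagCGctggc
Epha4: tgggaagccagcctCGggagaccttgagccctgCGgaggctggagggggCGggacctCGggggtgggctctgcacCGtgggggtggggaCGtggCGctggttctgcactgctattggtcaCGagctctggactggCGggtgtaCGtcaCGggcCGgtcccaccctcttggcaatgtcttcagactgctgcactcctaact
Epha3: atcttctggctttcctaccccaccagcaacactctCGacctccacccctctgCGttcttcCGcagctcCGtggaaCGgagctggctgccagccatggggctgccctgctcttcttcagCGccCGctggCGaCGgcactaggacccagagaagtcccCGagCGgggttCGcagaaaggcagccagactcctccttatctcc

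The Ephb1 stretch holds 6 CG pairs and the Ephb2 stretch holds 15, while Epha4 and Epha3 hold 12 each. Over the full RefSeq window of 300 bases, counted from 250 bases before to 50 bases after the start, the 4 receptor genes that were lower in Dnmt1 KO cells had 14 (Ephb1), 14 (Ephb4), 15 (Epha6) and 17 (Epha4) CG pairs. The other 6 had 18 (Epha3), 23 (Ephb3), 24 (Ephb2), 28 (Epha7), 30 (Epha5) and 34 (Ephb6). This order was noticed after the fold changes had been seen and was not tested, and it depended on where the start was placed. When 300 bases around the outermost GENCODE start were counted instead, the lower genes had 7 to 15 CG pairs and the others 6 to 27, with Ephb6 at 6. Windows of 14 to 17 CG pairs are held by 6.74% of the 27025 mouse promoters in the table, whose median is 7, and by 12.4% of the tested genes found there, whose median is 22. The 4 lower receptor genes thus lay above the median of all promoters and below that of the tested genes. Only 9614 of the 14126 tested genes had a window. These were 839 of 1638 lower genes, 805 of 1079 higher genes and 7970 of 11409 genes not called. Among them, windows of 14 to 17 CG pairs were held by 12.04% of lower, 12.17% of higher and 12.42% of not called genes. Such windows were thus no more common among lower genes than among the others, but the band was taken from the 4 lower receptor genes. The median was 20 CG pairs in lower, 23 in higher and 22 in not called genes. The first quartiles were 11, 16 and 15 in the same order. Because many genes had no window, the difference between these groups was not tested. The letters TAATTA, a palindrome and the core of many homeodomain motifs, occur in the window of Epha5 and in none of the other 9, against 5.31% of all promoters. DNA methylation was not measured in these libraries.

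Recovered reads per library ranged from 7154043 to 10089981, and a count of 0 allows up to 3 reads, or 2.22 to 3.70 normalized counts depending on the library (counting error only). Dnmt1 itself was lower in the Dnmt1 KO libraries (2768 ± 244 against 2303 ± 94.0 normalized counts, mean ± SD, n = 3 each; log2 fold change -0.26, limma adjusted p = 0.0218). Its count covers the whole gene, so the deleted exons were not seen separately, and the limma call was lost when control 1 (adjusted p = 0.0574), KO 2 (0.0848) or KO 3 (0.0926) was left out. It was also lost under quantile normalization (adjusted p = 0.0901), and scaling by total reads left a log2 fold change of -0.0039 (limma adjusted p = 0.972). The call was kept in 14 of 19 alternatives, edgeR and DESeq2 among them. For the RNA, the study also reported fewer Dnmt1 transcripts in sorted cortical Dnmt1 KO cells at this stage. For the protein, the study reported a lower DNMT1 immunostaining signal in tdTomato-positive cells of Dnmt1 KO embryos at the same stage. Of 14126 genes tested, 2717 were called at an adjusted p under 0.05 in limma, 1079 higher and 1638 lower (39.7% higher), and without KO 3 there were 1766. Scaling by total reads in place of the deposited size factors gave 6108 calls, 82.6% of them higher, and shifted the middle of all fold changes from 0.02 to 0.27 on the log2 scale, while quantile normalization gave 2821 calls, 51.5% of them higher. The X-inactivation RNA Xist fell by 0.51 and the Y-linked Kdm5d rose by 1.43 on the log2 scale, so sex-linked genes also moved with the genotype. Their part in the results was not tested.

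All 10 receptor genes passed the filter of a mean normalized count of at least 10. Epha6 did so only through its control values, with all Dnmt1 KO values under 10, and it is included in the counts below. Ephb1, Epha6, Epha4 and Ephb4 fell in Dnmt1 KO cells, none rose, and 6 were not called in limma. At an unadjusted p under 0.05 there were 5 lower and 1 higher, edgeR on recovered reads called 4 lower and 0 higher, and DESeq2 3 lower and 0 higher. Among all genes tested, 19.2% were called, 11.6% as lower and 7.64% as higher. The median log2 fold change over the 10 genes was -0.27, against 0.02 over all genes tested. In 6 of the 10 genes the 3 control and the 3 Dnmt1 KO values did not overlap, 5 of them lower and 1 higher in Dnmt1 KO, and the same held for 36.7% of all genes tested. The A class and the B class each had 2 lower genes of 5, where Epha6 of the A class was called in only 9 of 18 alternatives that tested it and the other 3 lower genes in all 19. In bulk RNA, fewer cells of a type and less RNA per cell cannot be told apart.

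**Figure D1:**
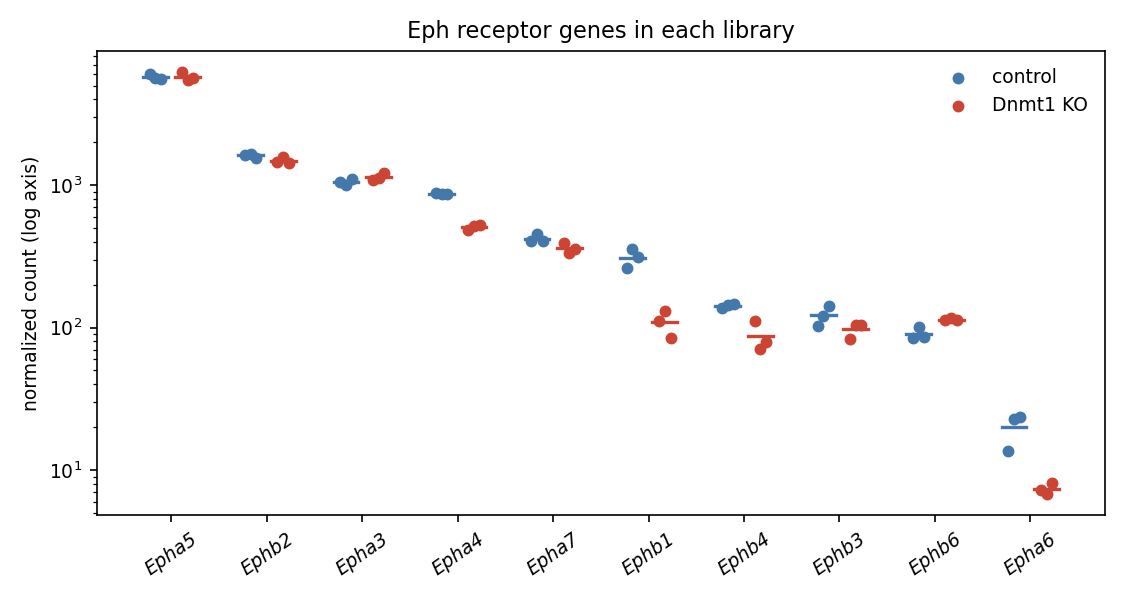
Normalized count of each Eph receptor gene (log axis) in each library, with control libraries in blue and Dnmt1 KO libraries in red and a bar at the mean of 3. Epha4 lies at 863 to 879 in control and 482 to 526 in Dnmt1 KO, while Epha5 lies between 5441 and 6239 in all 6 libraries.

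Ephb1 encodes a receptor of ephrin-B ligands that steers axons at the optic chiasm and interneuron streams in the mouse. Its normalized counts were 262, 354 and 313 in control and 112, 132 and 85.1 in Dnmt1 KO. Every Dnmt1 KO library lay far below the lowest control, and the means differed 2.83-fold (310 ± 46.1 against 109 ± 23.3). The log2 fold change was -1.50 (SE 0.16, 95% interval -1.85 to -1.15, limma adjusted p = 2.84e-05), the largest in size among the 10 genes in this fit. Recovered reads were 212 to 374 per control library and 108 to 136 per Dnmt1 KO library, so counting error was small beside the difference. Ephb1 lies at chr9:101799327-102231898 (GRCm39, minus strand).

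Epha4 encodes the receptor that binds ephrins of both classes. It gave 879, 865 and 863 normalized counts in control and 482, 517 and 526 in Dnmt1 KO. The control values were close to each other and the groups were far apart. The Dnmt1 KO mean was 58.5% of the control mean (869 ± 8.82 against 508 ± 23.2), a log2 fold change of -0.77 (SE 0.07, 95% interval -0.93 to -0.62, limma adjusted p = 7.49e-06). Epha4 lies at chr1:77343822-77492816 (minus strand).

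Ephb4, best known as the receptor of venous endothelium that pairs with ephrin-B2 on arteries, had 137, 144 and 146 normalized counts in control and 110, 70.6 and 79.2 in Dnmt1 KO. The groups did not overlap, and KO 1 stood nearest to the controls. The log2 fold change was -0.73 (SE 0.17, 95% interval -1.10 to -0.37, limma adjusted p = 0.00885). Without KO 1 the log2 fold change was -0.92. The 11 endothelial markers summed to 360 to 385 in control and 382 to 423 in Dnmt1 KO, overlapping ranges, and 0 of the 9 tested were called in limma, edgeR or DESeq2. Among all genes tested, 19.2% were called in limma. At an unadjusted p under 0.05, 1 endothelial marker was lower and 2 were higher. Kdr, a receptor of vascular endothelial growth factor and the most abundant of them over all 6 libraries, had 70.1 ± 13.96 against 98.2 ± 13.78 normalized counts. The adhesion gene Pecam1, the most abundant in control, had 74.8 ± 11.8 against 53.6 ± 8.91, groups that did not overlap, and was not called (log2 fold change -0.47, limma adjusted p = 0.120). Ephb4 lies at chr5:137348274-137376931 (plus strand).

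Epha6, an A class receptor of the developing and adult brain, was the least abundant of the 10. Its normalized counts were 13.6, 22.7 and 23.4 in control and 7.23, 6.77 and 8.14 in Dnmt1 KO, from 11, 24 and 21 against 7, 7 and 11 reads. The groups did not overlap, but the exact Poisson interval of control 1 (6.78 to 24.3) overlapped that of KO 1 (2.91 to 14.9). The log2 fold change was -1.28 (SE 0.39, 95% interval -2.13 to -0.44, limma adjusted p = 0.0354). With all Dnmt1 KO values under 10, the gene passed the filter through its control values. The call was lost without control 2 (adjusted p = 0.113), control 3 (0.128), KO 1 (0.0734), KO 2 (0.0894) or KO 3 (0.0743), and also in DESeq2 on recovered reads (0.0615). Epha6 lies at chr16:59473846-60425894 (minus strand).

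The remaining 6 receptor genes were not called. Epha5, a receptor used in topographic mapping of axons, was the most abundant, with 6044, 5611 and 5526 normalized counts in control and 6239, 5441 and 5643 in Dnmt1 KO. The groups overlapped, and the interval of its log2 fold change ran from -0.13 to 0.16 (estimate 0.01, limma adjusted p = 0.937). Ephb2, a B class receptor of axon guidance and synapses, had 1640, 1665 and 1558 against 1442, 1566 and 1425 (log2 fold change -0.13, interval -0.28 to 0.01). Epha3, a receptor of ephrin-A5, had 1057, 1003 and 1108 against 1086, 1127 and 1210 (log2 fold change 0.11, interval -0.04 to 0.26). Both genes overlapped between groups, and the intervals of these 3 genes all lay above the -0.77 of Epha4. Ephb3, which acts with Ephb2 in commissural axons of the mouse, had 102, 121 and 143 against 83.6, 104 and 104 (log2 fold change -0.32, interval -0.67 to 0.03).

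Epha7 and Ephb6 did not overlap between groups and yet missed the threshold. Epha7, an A class receptor of cortical progenitors and axons, had 404, 457 and 404 normalized counts in control and 391, 333 and 358 in Dnmt1 KO (log2 fold change -0.22, interval -0.43 to -0.02, limma adjusted p = 0.116). Ephb6, whose kinase domain is inactive, had 84.0, 101 and 85.8 against 113, 116 and 113 (log2 fold change 0.33, interval 0.02 to 0.65, limma adjusted p = 0.128). It was the only one of the 10 with all Dnmt1 KO values above all control values. In genome order on GRCm39, these 6 genes lie at chr4:28813034-28967507 (Epha7), chr4:136374850-136563351 (Ephb2), chr5:84202620-84565348 (Epha5), chr6:41581983-41600264 (Ephb6), chr16:21023495-21042057 (Ephb3) and chr16:63363897-63684538 (Epha3).

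**Figure D2:**
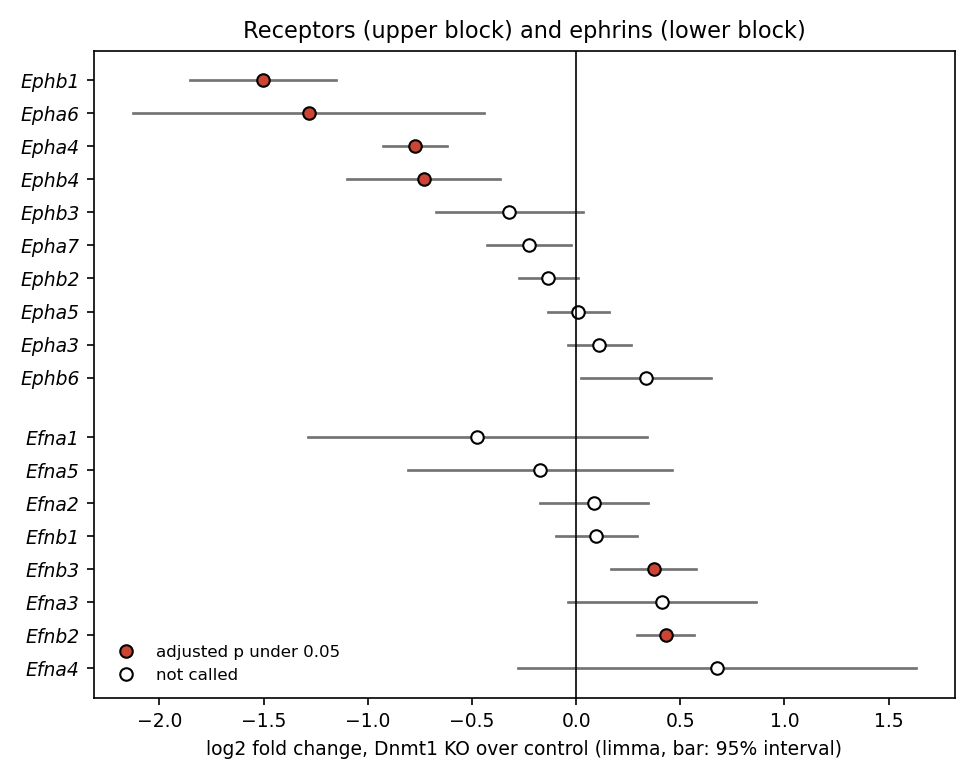
Log2 fold change of Dnmt1 KO over control (limma on log2 of normalized count plus 1) for the 10 Eph receptor genes and the 8 ephrin genes, with 95% intervals; filled points have an adjusted p under 0.05. Filled receptor points all lie to the left of 0, from -1.50 (Ephb1) to -0.73 (Ephb4), and the filled ephrin points lie to the right, at 0.43 (Efnb2) and 0.37 (Efnb3).

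Levels were compared between genes after division by the exonic length, as normalized counts per kb. In control cells Epha5 led with 277 ± 13.4 per kb, followed by Ephb2 (128 ± 4.42), Epha3 (112 ± 5.56) and Epha4 (105 ± 1.07). The ranges of Epha3 and Epha4 overlapped, and all other neighbours in the control order were apart. Ephb1 followed in place 5 with 44.0 ± 6.55 per kb, ahead of Epha7 (33.6), Ephb4 (28.3), Ephb3 (17.6), Ephb6 (11.95) and Epha6 (3.76). In Dnmt1 KO cells Epha5 (279 ± 20.0), Epha3 (121 ± 6.63) and Ephb2 (117 ± 6.07) led, the last 2 with overlapping ranges, and Epha4 came next with 61.7 ± 2.81. Ephb1 was in place 7 with 15.5 ± 3.31 per kb. Its range overlapped those of Ephb4 (17.3 ± 4.18) and Ephb6 (15.1 ± 0.27), and Ephb6 overlapped Ephb3 (14.04 ± 1.70), so the order within this group of 4 was not resolved. The exonic length counts all annotated transcripts together, which lowers the level per kb of genes with long alternative exons.

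Summed over the 10 genes and not divided by length, the receptors had 10170 to 10622 normalized counts in control and 9412 to 10066 in Dnmt1 KO. Epha5 took 54.2% to 56.9% of this sum of counts in control and 57.8% to 62.0% in Dnmt1 KO. Its exonic length of 20691 bases was the longest, against 5024 (Ephb4) to 12660 (Ephb2) in the others. It thus weighs more in these sums than per kb. Without Epha5 the sums were 4578 to 4732 against 3827 to 3971, a Dnmt1 KO mean of 0.839 times the control mean. The B class summed to 2225 to 2385 against 1806 to 1988, with no overlap, whereas the A class ranges (7925 to 8397 and 7425 to 8206) overlapped. Ephb1 made up 13.5% ± 1.58 of the B class counts in control and 5.78% ± 0.97 in Dnmt1 KO.

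Ratios between receptor genes of the same library do not depend on the scaling between libraries. The ratio of Ephb1 to Ephb2 was 0.160, 0.213 and 0.201 in control and 0.0774, 0.0841 and 0.0597 in Dnmt1 KO. The ratio of Epha4 to Epha3 was 0.779 to 0.862 in control and 0.435 to 0.458 in Dnmt1 KO, and that of Epha4 to Epha5 was 0.145 to 0.156 against 0.0773 to 0.0950. For Ephb4 to Ephb2 the ranges were 0.0836 to 0.0936 and 0.0451 to 0.0766. The ratio of Ephb6 to Ephb2 went the other way, from 0.0512 to 0.0608 in control to 0.0742 to 0.0790 in Dnmt1 KO. None of the 5 ratios overlapped between groups, and for each the exact two-sided permutation p was 0.1 (adjusted 0.1 over the 5), the smallest that 3 libraries against 3 allow. The pairs were chosen with the fold changes known, each with a top gene whose groups did not overlap, so this p adds no support.

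**Figure D3:**
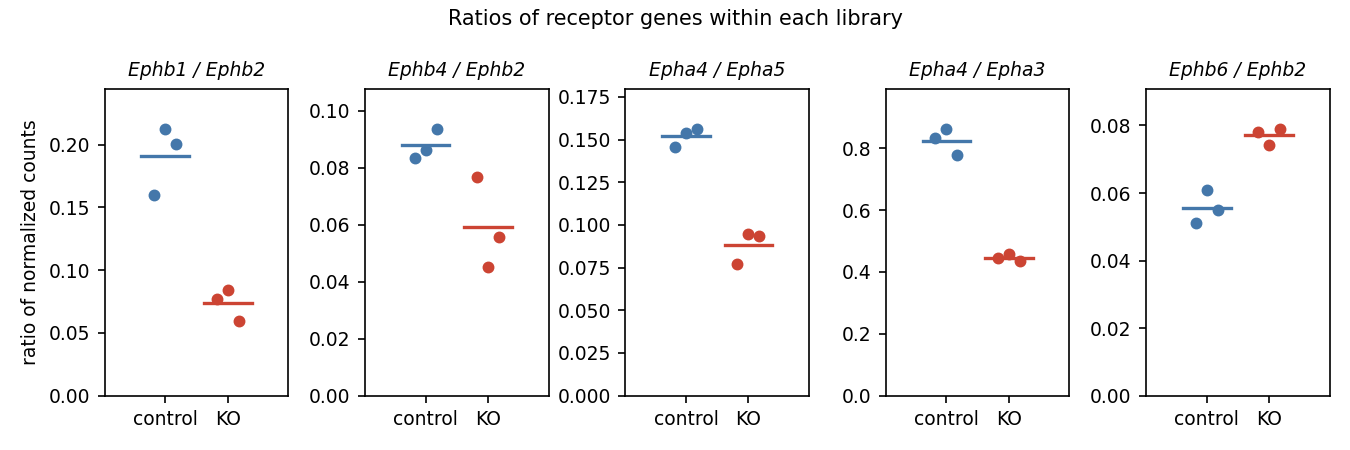
Ratio of the normalized counts of 2 receptor genes within each library, for control (blue) and Dnmt1 KO (red) libraries, with a bar at the mean of 3; each axis starts at 0. The 4 ratios with Ephb1, Ephb4 or Epha4 on top are lower in Dnmt1 KO, with Ephb1 to Ephb2 at 0.0597 to 0.0841 against 0.160 to 0.213, and Ephb6 to Ephb2 is higher.

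Among the settings tried, Ephb1, Epha4 and Ephb4 were called lower under all 19 alternatives, with log2 fold changes of -1.65 to -1.25, -0.81 to -0.51 and -0.92 to -0.48. Scaling by total reads called Epha3 (0.37), Epha5 (0.27) and Ephb6 (0.59) as higher. Relative to the median of all genes under that scaling, the same genes stood at 0.09, -0.01 and 0.32, and Ephb1, Epha4 and Ephb4 at -1.52, -0.79 and -0.75. Quantile normalization called Epha5 as higher (0.20).

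**Figure D4:**
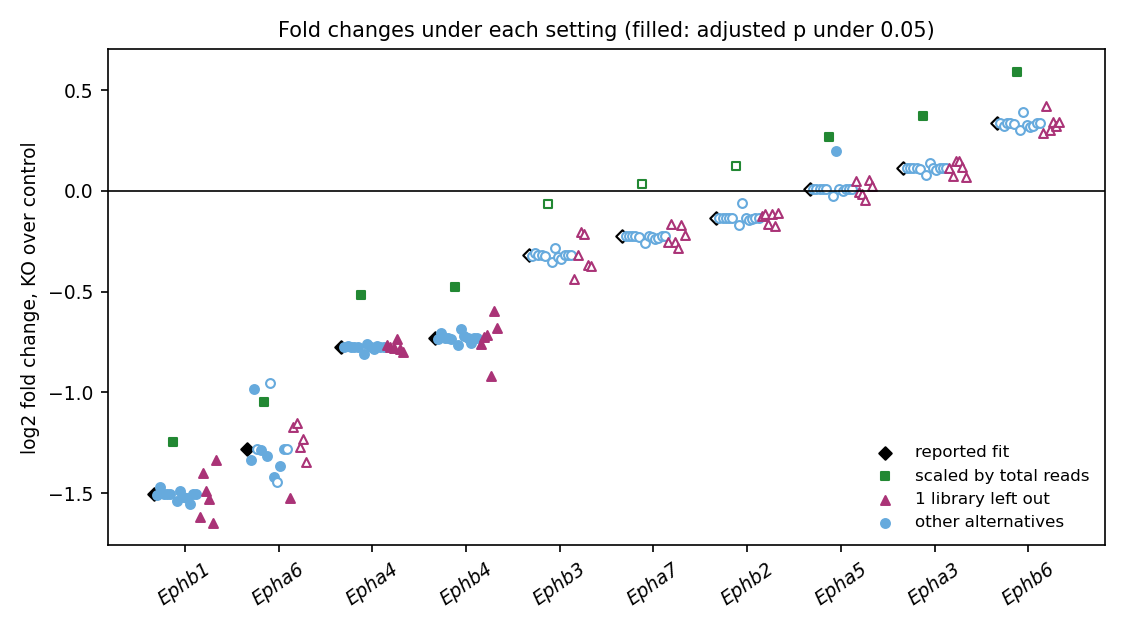
Log2 fold change of each receptor gene under the reported fit (diamond), scaling by total reads (square), the omission of 1 library (triangles) and the other alternatives (circles), filled where the adjusted p is under 0.05. Ephb1, Epha4 and Ephb4 are filled and below 0 throughout, and the square of each gene lies above its diamond by about the shift of all genes (from 0.02 to 0.27).

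The other Eph receptors in the table were at low levels. Epha8 had 29.6, 57.7 and 30.1 normalized counts in control and 14.46, 27.1 and 28.1 in Dnmt1 KO, groups that did not overlap, but it was not called (log2 fold change -0.71, interval -1.46 to 0.03, limma adjusted p = 0.172). Epha2, a receptor better known from epithelia, had 13.6, 9.46 and 4.45 against 1.03, 7.74 and 6.66 and was not tested. Epha1 and Epha10 had at most 3 reads in any library.

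Of the 8 ephrin genes, 2 of the B class rose and 0 fell in limma, edgeR and DESeq2, also at an unadjusted p under 0.05, with a median log2 fold change of 0.23. Among all genes tested, 7.64% were called higher and 11.6% lower in limma. Efnb2, which encodes ephrin-B2, had 1789, 1936 and 1871 normalized counts in control and 2391, 2548 and 2601 in Dnmt1 KO. The groups were well apart (log2 fold change 0.43, SE 0.06, limma adjusted p = 0.000364). Efnb3 encodes ephrin-B3, a ligand of EphB receptors and of EphA4, and had 382, 325 and 406 against 468, 488 and 480 (log2 fold change 0.37, SE 0.09, limma adjusted p = 0.0149). The Efnb3 call was lost without KO 2 (limma adjusted p = 0.0584) and without KO 3 (0.0576). Efnb1 gave 384 ± 27.5 against 410 ± 25.1 and was not called. Scaling by total reads called 5 of the 8 ephrin genes as higher, Efnb1 (0.35) among them.

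Among the 5 ephrin-A genes 0 were called in limma, edgeR or DESeq2, and 0 had an unadjusted p under 0.05. Of these, 2 were called as higher when scaled by total reads, Efna2 (0.34) and Efna3 (0.67). Efna2 was the most abundant by normalized count (159 ± 5.04 against 169 ± 18.4), and the others lay between 11.5 and 65.6 in their group means. Their log2 fold changes were -0.47 (Efna1), 0.09 (Efna2), 0.41 (Efna3), 0.67 (Efna4) and -0.17 (Efna5), with intervals that all included 0. Efna5 encodes ephrin-A5, a ligand of EphA4 and EphA5. The summed B class ephrins were 1.12 to 1.17 times the summed B class receptors in control and 1.75 to 1.92 times in Dnmt1 KO, in normalized counts not divided by length.

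Genes that carry the signal inside the cell were called in both directions, beside the 19.2% called over all genes tested. Of 20 regulators of small GTPases downstream of Eph receptors, 6 were lower and 4 higher, with a median log2 fold change of -0.14. Vav3, an exchange factor that activates Rac, had 56.8, 46.4 and 59.0 normalized counts in control and 16.5, 13.5 and 18.5 in Dnmt1 KO. The groups were far apart (log2 fold change -1.68, SE 0.26, limma adjusted p = 0.000538). Pak3, a kinase activated by Rac and Cdc42, fell by 0.64 on the log2 scale, Arhgef15, an exchange factor of RhoA that binds EphB2, fell by 1.33, and Chn2, a Rac inhibitor, fell by 0.54. These 4 genes were called lower under each alternative run. Rasa1 (0.30), Rock1 (0.34), Cdc42 (0.26) and Vav2 (0.34) were higher. Each lost its call without KO 2 and without KO 3, Rasa1, Rock1 and Vav2 also without control 1, and Cdc42 and Vav2 also without control 3, with adjusted p of up to 0.0920, 0.0852, 0.104 and 0.116 in the order given. The counts for this list ran from 4 (without KO 2) to 10 (without control 2) lower and from 0 (without KO 2 or KO 3) to 4 higher, with 1 higher without control 1 and 2 without control 3. Scaling by total reads gave 5 lower and 9 higher.

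Of 21 kinases, phosphatases and adaptors, 3 were lower and 2 higher, with a median of -0.09, and scaling by total reads gave 1 lower and 7 higher. DESeq2 gave 3 lower and 1 higher. Over all genes tested, 11.6% were lower and 7.64% higher in limma, and the counts of this list lay near those shares. Grb10, an imprinted adaptor that binds receptor kinases, had 1508, 1286 and 1256 normalized counts in control and 717, 812 and 825 in Dnmt1 KO. Every Dnmt1 KO library was below every control (log2 fold change -0.78, SE 0.09, limma adjusted p = 3.29e-05). Cbl, a ubiquitin ligase that removes active receptors, fell by 0.44, and the adaptor gene Nck2 was higher by 0.44. Anks1b (-0.25) and Cdk5 (0.34) were called in the reported fit, but Anks1b kept its call only without control 3 and Cdk5 only without control 1 when single libraries were left out, with adjusted p of up to 0.0939 and 0.141 otherwise. Cdk5 was also not called in DESeq2 (adjusted p = 0.125). Of 12 proteases and PDZ partners, which cleave or anchor receptors and ephrins, 1 was lower and 2 higher, with a median of 0.06 (0 lower and 7 higher when scaled by total reads). DESeq2 gave 1 lower and 1 higher. Dlg1, a scaffold gene, fell by 0.44, and Mmp2, a secreted metalloprotease, rose from 91.6 ± 4.72 to 161 ± 10.4 (log2 fold change 0.80). Adam10, a sheddase of ephrins, was called at 0.23, and the call was lost when any 1 library was left out (adjusted p of 0.0678 to 0.159). In DESeq2 Adam10 was not called (adjusted p = 0.125).

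The genes whose profile over the 6 libraries was most like that of a lower receptor were ranked by the root mean square difference of centred log2 values among 9347 genes, a description over libraries that share the group difference. For Epha4 they were Plagl1 (0.0375), which encodes an imprinted zinc finger protein, Zfhx2 (0.0527) and Tle4 (0.0531). For Ephb1 they were Prkcb (0.131), which encodes a protein kinase C, and the small nucleolar RNAs Snora15 (0.164) and Snord8 (0.179). For Ephb4 they were Etl4 (0.0742), Ica1l (0.0970) and Dlgap5 (0.0991). For Epha6 they were both listed copies of Snord3a (0.0747 and 0.0993) and Snora81 (0.0783). The copies of Snord3a can share reads, so their counts are uncertain.

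Markers of several cell populations also moved with the genotype, where 11.6% of all genes tested were called lower and 7.64% higher. Of 13 markers of interneurons of the medial ganglionic eminence, 10 were higher and 0 lower in limma, with 1 lower at an unadjusted p under 0.05 and in DESeq2 and 0 in edgeR (median 0.47), and the list summed to 25640 to 27758 normalized counts in control and 32901 to 34417 in Dnmt1 KO. Lhx6, a transcription factor that marks these cells, had 5519 ± 429 against 6924 ± 202, and Sst itself had 2978 ± 112 against 3284 ± 153, so the labelled cell type was present in both groups. Of 11 markers of the thalamus and diencephalon that were tested, 8 were lower and Rora was higher (median -1.78), with sums of 2451 to 2518 against 740 to 748. Tcf7l2, the most abundant of them, had 1130 ± 39.7 against 48.9 ± 16.6. Of 9 tested markers of striatal projection neurons, 7 were lower (median -1.47, sums of 2644 to 2805 against 1120 to 1176), led by Meis2 with 1571 ± 102 against 696 ± 12.3.

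Radial glia markers were lower in 8 of 11 genes, with Sox2 higher, a call lost without control 1, KO 2 or KO 3 (median -0.62, sums of 11202 to 11398 against 7803 to 7979), and their most abundant gene, Vim, had 2975 ± 122 against 2279 ± 19.7. Markers of excitatory neurons and intermediate progenitors were lower in 4 of 12 genes (2 or 3 with any 1 library left out and 2 in DESeq2) and Neurod6, the most abundant, was higher at 678 ± 23.1 against 836 ± 25.6 (median -0.16, sums of 3199 to 3292 against 3028 to 3079). Markers of mural and mesenchymal cells were lower in 3 of 11 genes, beside 11.6% of all genes tested (median -0.17, sums of 1124 to 1295 against 891 to 1049). These were Col1a1 (248 ± 8.34 against 89.6 ± 11.3), Col1a2 (201 ± 3.67 against 117 ± 8.82) and Pdgfra (125 ± 13.7 against 75.1 ± 25.3). The other 8 were not called, among them Col3a1, the most abundant, at 367 ± 54.9 against 439 ± 23.8. Cajal-Retzius markers were lower in 3 of 8 genes (median -0.59), and their sums overlapped (3028 to 3357 against 3279 to 3323), as did those of 11 microglia and blood markers, of which 1 of 6 tested was lower in limma and 0 in DESeq2 (median 0.09, 575 to 629 against 476 to 611). Reln made up most of the Cajal-Retzius sum, with 2816 ± 178 against 3110 ± 31.9. The 3 lower Cajal-Retzius genes were Ebf3 (183 ± 17.9 against 38.0 ± 17.1), Ebf2 (45.2 ± 8.88 against 10.6 ± 1.75) and Lhx1 (27.6 ± 6.07 against 9.84 ± 6.73). The other 5, Reln among them, were not called. Hbb-bs, the leading blood gene, had 163 ± 10.6 against 139 ± 16.9. Foxp2 is on both the striatal and the thalamic list and Slc17a6 on both the thalamic and the excitatory list. No marker on these lists was at 0 in all 6 libraries. The part of the thalamic, striatal, radial glial and other marker differences in the lower Ephb1, Epha4, Ephb4 and Epha6 counts was not tested.

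Genes on the opposite strand overlap several of the receptor genes, and the sources used here do not give the strand setting of the counting. The listed partners of Epha4, Epha6, Ephb1, Ephb4 and Ephb6 had group means of at most 1.81 normalized counts. Gm71976 (on Epha5), Gm68598 (on Ephb2, 636 shared exonic bases) and Gm52791 (on Ephb4) were not listed, so their counts could not be checked.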

How the data were processed

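Total RNA of sorted cells was sequenced in 3 control and 3 Dnmt1 KO libraries, grouped and numbered by their titles. The authors aligned and quantified reads (Trim Galore 0.6.10, STAR 2.7.11b and Salmon 1.10.3 on GRCm39 per the submitters' processing notes, where the study's methods name other versions). The deposited gene signal is their table of normalized counts, in which DESeq2 (1.42.1) divided counts by 1 size factor per library. Deposited columns of fold changes, p-values, Gene Ontology terms and enrichment scores of the authors' comparison were not used.

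All values were whole multiples of 1 step per library (100%, tolerance 0.001), worth 0.740 to 1.23 normalized counts, from which reads were recovered. Genes with a mean of at least 10 were fitted as log2(normalized count + 1) in limma 3.58.1 (R 4.3.3; group as the only term, eBayes with trend). Tests were two-sided with Benjamini-Hochberg adjustment over all 14126 genes, and fold changes on this scale understate changes of low genes. Intervals of single counts are exact Poisson intervals for counting error only, and whether molecular identifiers were counted was not stated. The alternatives were pseudocounts of 0.5 and 5, no filter, a minimum mean of 50, 4 other scalings, edgeR 4.0.16, DESeq2 1.42.0 and limma-voom on recovered reads, robust eBayes, a replicate block and leaving out each library. The limma, edgeR and DESeq2 fits were tested on simulated data, and the other alternatives were not. Positions and exonic lengths came from GENCODE M39.

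Named genes were all Eph receptors and ephrins, Dnmt1, up to 4 called genes per signalling list and direction with the smallest p, the most abundant gene of each marker list, and for each called receptor the 3 genes of mean at least 50 closest in profile. Sst, Xist, Kdm5d and Pecam1 fell outside this rule and were added after their values were seen. The same holds for markers named for opposite calls, for shared lists or as lower Cajal-Retzius, mural or mesenchymal genes. The receptor genes, lists and tests were chosen with earlier results of these data known. Every genotype tag of the labels reads Sst-Cre/tdTomato, and the knockout is given by the titles.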

Additional observations from a re-analysis of the deposited data

How the results depend on the processing

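Fold changes of 65 genes named in the text were recomputed under 19 alternatives (1228 values): 1135 kept their direction and side of the threshold, 66 were no longer past it, 15 passed it anew and 12 changed direction. Scaling by total reads gave 6108 called genes and 3 higher receptor genes, and quantile normalization gave 1 higher receptor gene. Leaving out 1 library gave 1766 to 2504 called genes. Under total reads the log2 fold changes of Epha7 (0.033), Ephb2 (0.12), Efna5 (0.079), Anks1b (0.0087) and Hbb-bs (0.031) turned positive, and with size factors from protein-coding genes that of Epha5 was -0.024. With 1 library left out, Epha5 ranged from -0.046 to 0.052, Efna2 from -0.00054 to 0.14 and Efna5 from -0.40 to 0.081. The cause was not tested for any of these. Epha6 also lost its call with no filter (adjusted p = 0.0760) and with quantile normalization (0.0983), both in limma, and was not tested at a minimum mean of 50. Libraries with the same replicate number had deviations that correlated at -0.018, 0.064 and -0.031, so the numbers did not pair them. A replicate block gave 2528 called genes and 3 lower receptor genes, with Epha6 at a limma adjusted p of 0.0536. Among the 10 receptor genes Epha6 had the fewest reads, 7 to 24 per library.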
